A study of Mus musculus with 2 samples.

Results

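The Cyp2c genes described here are 10 mouse cytochrome P450 genes, Cyp2c29, Cyp2c37, Cyp2c38, Cyp2c40, Cyp2c44, Cyp2c50, Cyp2c54, Cyp2c67, Cyp2c68 and Cyp2c70, out of 31053 genes in the deposited matrices. They were chosen by symbol. Of the 10, 9 symbols were in the files, and Cyp2c44 was found under the symbol Cyp2c23, of which RefSeq lists Cyp2c44 as a synonym. It is called Cyp2c23 below. The list was drawn up with earlier results of these data known, so the levels by diet, by liver zone and between cells are descriptions and carry no test. Single cells were profiled from livers of C57BL/6 mice kept on chow or on a NASH diet over 6.5 weeks, so that NASH liver could be set beside chow liver. NASH is non-alcoholic steatohepatitis, and the labels describe its diet as high in fructose, fat and cholesterol. Cells were freed with collagenase and spun through Percoll, a density medium, in a scheme meant to keep both hepatocytes and the other liver cells. Each diet was represented by 1 library, and the sources used here do not give the number of mice in each, so no difference between diets can be set against a spread between animals.

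Cyp2c enzymes are membrane-bound monooxygenases of the endoplasmic reticulum that take electrons from cytochrome P450 reductase. They oxidise drugs and other foreign compounds, and several convert arachidonic acid and linoleic acid to epoxides or hydroxy acids that act as lipid mediators. In liver, much of the drug-metabolising P450 system is made by pericentral hepatocytes, the cells around the central vein where blood leaves the lobule, whereas periportal hepatocytes lie where blood enters. Transcription of these genes is known to respond to the nuclear receptors CAR (Nr1i3) and PXR (Nr1i2), to HNF4A and, for pericentral genes, to beta-catenin signalling, and inflammation is known to lower many hepatic P450 transcripts.

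The chow library held 71635757 UMIs over 7359 barcodes and the library of the NASH diet, called the NASH library below, 39440182 over 5881. A UMI is a molecular tag that counts 1 captured RNA molecule. After filtering, 2100 chow and 1137 NASH diet barcodes fell in hepatocyte-like clusters, named from markers that hold no Cyp2c gene. All 15 hepatocyte markers exceeded 1 CPM in both, where CPM is the UMIs of a gene in each 1000000 UMIs of the cells summed. They did so in endothelial-like, phagocyte-like and unnamed low-UMI clusters too, so this does not separate the classes. The markers summed to 83700 CPM in chow and 102000 in NASH hepatocyte-like cells. They summed to 6520 and 4490 in endothelial-like cells, 5220 and 7780 in phagocyte-like cells, and 74300 and 75300 in the unnamed clusters. Median depths of the hepatocyte-like cells were 23439 and 19755 UMIs and their median mitochondrial shares 18.0% and 23.1%. Different clusters held the hepatocyte-like cells of the 2 libraries, with chow cells mainly in clusters 0, 3, 6, 7 and 9 and NASH cells mainly in clusters 1, 12, 17 and 18. The libraries shared 69 barcodes, of which 2 were hepatocyte-like in both.

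All 10 genes lie on chromosome 19 in GENCODE M21 (build GRCm38), and each has 9 exons in the transcript used. Of these, 9 sit within 918 kb, between 39269405 and 40187333, in the order Cyp2c29, Cyp2c38, Cyp2c67, Cyp2c68, Cyp2c40, Cyp2c37, Cyp2c54, Cyp2c50 and Cyp2c70. Cyp2c23 stands apart, 3818 kb further along, at 44005022 to 44029208 on the minus strand. Close paralogs are neighbours. Over the last 400 bases of their transcripts, which 3' reads cover best, Cyp2c40 and Cyp2c68 were 98.5% identical, Cyp2c40 and Cyp2c67 98.0%, and Cyp2c67 and Cyp2c68 97.5%. Cyp2c37 and Cyp2c50 were 95% identical over the same stretch, with a longest shared run of 101 bases. Cyp2c50 and Cyp2c54 were 77.5% identical there, although their whole transcripts were 92.2% identical. The sources used here do not say how reads that match several genes were counted, so the separate values of Cyp2c40, Cyp2c67 and Cyp2c68, and of Cyp2c37, Cyp2c50 and Cyp2c54, are uncertain. Across all 45 pairs the median identity of these ends was 52.4%, so Cyp2c29, Cyp2c38, Cyp2c23 and Cyp2c70 are easier to tell from the rest.

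RefSeq promoter windows (build GRCm38.p6) were given for 8 of the 10 genes, all but Cyp2c54 and Cyp2c23. Their starts are those of RefSeq and can differ from the GENCODE positions above. The whole Cyp2c29 window lies inside its GENCODE gene, which runs from 39269405 to 39330713. The 250 bases before the start are shown for 5 of them, because these genes stand for the patterns described below: Cyp2c29, Cyp2c37 and Cyp2c50 for the steepest pericentral profiles, Cyp2c67 for a gradient that differed between the libraries, and Cyp2c70 for a shallow one. They lie at chr19:39286835-39287084 (plus strand), chr19:39992174-39992423 (plus), chr19:40089429-40089678 (plus), chr19:39649043-39649292 (minus) and chr19:40187287-40187536 (minus), and read 5′ to 3′ with capitals marking CAAAGTC, the core of a motif that HNF4A is known to bind.
Cyp2c29: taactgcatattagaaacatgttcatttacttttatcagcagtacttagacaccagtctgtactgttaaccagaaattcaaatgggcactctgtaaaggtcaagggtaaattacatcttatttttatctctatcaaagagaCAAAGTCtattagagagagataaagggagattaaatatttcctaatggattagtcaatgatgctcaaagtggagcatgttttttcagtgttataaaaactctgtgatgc
Cyp2c37: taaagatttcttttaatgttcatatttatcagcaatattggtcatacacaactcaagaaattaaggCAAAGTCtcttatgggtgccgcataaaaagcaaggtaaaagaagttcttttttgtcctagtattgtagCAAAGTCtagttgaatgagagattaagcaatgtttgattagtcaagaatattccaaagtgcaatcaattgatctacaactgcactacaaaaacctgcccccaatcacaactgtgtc
Cyp2c50: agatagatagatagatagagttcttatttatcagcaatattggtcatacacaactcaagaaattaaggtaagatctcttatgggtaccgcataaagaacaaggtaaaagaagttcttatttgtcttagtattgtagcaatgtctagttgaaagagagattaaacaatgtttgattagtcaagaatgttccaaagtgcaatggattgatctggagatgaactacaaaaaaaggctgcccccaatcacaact
Cyp2c67: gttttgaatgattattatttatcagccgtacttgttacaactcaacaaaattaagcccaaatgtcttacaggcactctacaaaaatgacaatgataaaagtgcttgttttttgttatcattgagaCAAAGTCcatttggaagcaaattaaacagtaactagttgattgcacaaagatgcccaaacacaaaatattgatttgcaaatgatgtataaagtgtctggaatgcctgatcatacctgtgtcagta
Cyp2c70: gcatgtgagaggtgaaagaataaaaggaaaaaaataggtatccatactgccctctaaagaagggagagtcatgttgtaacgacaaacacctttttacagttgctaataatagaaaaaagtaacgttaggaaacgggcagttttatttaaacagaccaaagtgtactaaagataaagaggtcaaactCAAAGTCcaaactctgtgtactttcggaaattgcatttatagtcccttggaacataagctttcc
CAAAGTC was found in 6 of the 8 windows of 300 bases, those of Cyp2c29, Cyp2c37 (2 copies), Cyp2c40, Cyp2c67, Cyp2c68 and Cyp2c70, against 4.44% of 32851 RefSeq windows of the same length. Every copy was in the direction of the gene, from 45 bases before the start in Cyp2c40 to 184 bases before it in Cyp2c37. TATAAA was in 5 windows against 13.6% of all, TTGCNNAA in 3 against 10.8%, AGGTCA in 2 against 16.3%, GTTAAT in 2 against 7.1%, TGTTTAC in 1 against 3.65% and TTCNNNGAA in 0 against 8.3%. Both strands were searched for each motif, and no match of another motif overlapped a capitalised one. The Cyp2c37 and Cyp2c50 windows were 86.6% identical and those of Cyp2c40 and Cyp2c68 75.1%, so paralogs do not count as separate observations of a motif. The presence of these letters is a description of the sequence and does not show binding, and the steep gene Cyp2c50 had no CAAAGTC in its window while Cyp2c70, with a shallow gradient, had 1.

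In chow hepatocyte-like cells the 10 genes together gave 83409 UMIs, or 1776 CPM (95% Poisson interval 1764 to 1788), which is 0.178% of all UMIs. Intervals of this kind cover counting error only. Each 3' UMI counts 1 molecule whatever the transcript's length, so levels were compared between genes without scaling by length. Cyp2c70, which makes the muricholic acids of the mouse bile acid pool, was highest in chow at 441 CPM (435 to 447). Cyp2c29, a phenobarbital-inducible enzyme that also acts on arachidonic acid, followed at 418 (412 to 424), and Cyp2c50, an epoxygenase of arachidonic and linoleic acid, at 361 (356 to 366). These 3 genes made up 24.8%, 23.6% and 20.3% of the summed Cyp2c UMIs. Lower levels were found for Cyp2c67 at 153, Cyp2c23, an arachidonic acid epoxygenase, at 136, Cyp2c54, an epoxygenase close to Cyp2c50, at 108, Cyp2c37 at 91.3 and Cyp2c68 at 56.2 CPM. Cyp2c38 at 8.30 and Cyp2c40 at 2.98 were the lowest. In this order no neighbouring pair had overlapping counting intervals.

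Endothelial-like and phagocyte-like cells held few of these transcripts. In endothelial-like cells the summed level was 69.7 CPM in chow (42 cells) and 32.5 in the NASH library (43 cells). Mononuclear phagocyte-like cells had 82.8 (90 cells) and 107 (94 cells). That cluster was mixed. Its phagocyte markers summed to 32500 CPM in chow and 13800 in the NASH library. B or plasma cell markers summed to 2340 and 4920 there, and T or NK cell markers to 1280 and 1880. A cluster led by cell cycle genes had 2551 CPM in chow (19 cells) and 929 in the NASH library (5 cells). Neither endothelial-like nor phagocyte-like cells had a UMI of Cyp2c38 or Cyp2c40 in either library. In cells thinned to 1000 UMIs, Cyp2c70 had a UMI in 33.2% of 2073 chow hepatocyte-like cells, against 2 of 42 endothelial-like cells (4.76%, exact binomial 95% interval 0.582 to 16.2) and 2 of 64 phagocyte-like cells (3.12%, 0.381 to 10.8). The unthinned median depths in chow were 23439, 5533 and 3994.5 UMIs in that order. The low shares outside hepatocytes were read as background. Of the other genes named Cyp2c, Cyp2c55 had 61 UMIs in chow hepatocyte-like cells and 37 in those of the NASH diet, Cyp2c69 57 and 21, Cyp2c39 21 and 9, and Cyp2c65 and Cyp2c66 none.

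Between diets the family total was nearly the same under the main settings while its make-up differed. The NASH cells gave 43314 UMIs of the 10 genes, 1910 CPM (1892 to 1928) or 0.191% of UMIs, a log2 ratio to chow of 0.10 (0.08 to 0.13 from counting alone). All log2 ratios are of CPM plus 1. The median over the 10 genes was 0.08, against 0.14 over all 7919 genes at 5 or more CPM. Its sign turned under 9 of 21 other settings, to -1.54 with a mitochondrial limit of 10% and -0.46 in cells of 10000 to 30000 UMIs. The limit of 10% also changed which cells were compared, as clusters were redrawn and 1755 chow and 225 NASH cells were hepatocyte-like. Of the 10 genes, 5 were higher and 5 lower in the NASH library, where 68.5% of all genes tested were higher. Only Cyp2c38 was at least 2-fold higher and 0 of the 10 were at least 2-fold lower, where 3.04% and 2.11% of all genes tested were. Of the 10, 9 reached the minimum of 5 CPM, and Cyp2c40, counted above among the lower genes, did not. Without it the middle value of the other 9 was that of Cyp2c54, 0.18, which lies above the 0.14 of all genes tested.

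Cyp2c23 and Cyp2c38 had the largest log2 ratios, and Cyp2c23 was by far the more abundant of them. Its level was 136 CPM in chow (132 to 139) and 268 in the NASH library (261 to 275), a log2 ratio of 0.98 (0.90 to 1.05), and its part of the family's UMIs was 7.64% and 14.0%. Cyp2c37, whose product hydroxylates arachidonic acid, was 91.3 (88.5 to 94.0) in chow and 157 (152 to 162) with the NASH diet, a log2 ratio of 0.78 (0.69 to 0.87). Cyp2c38, another arachidonic acid oxygenase, was 8.30 (7.50 to 9.17) and 17.9 (16.2 to 19.7), a log2 ratio of 1.02 (0.76 to 1.29). The counting intervals of the libraries did not overlap for any of these 3 genes. The higher genes thus included both a scarce member and one that took a larger part of the family in the NASH cells. Cyp2c50 differed less, at 361 and 462 CPM, a log2 ratio of 0.35 (0.31 to 0.40), and Cyp2c54 less again, at 108 and 123, a log2 ratio of 0.18 (0.08 to 0.27).

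Cyp2c70 was lower in the NASH library, at 310 CPM (303 to 317) against 441 (435 to 447) in chow, a log2 ratio of -0.51 (-0.56 to -0.45). It was the most abundant member in chow and only the third in the NASH cells, after Cyp2c50 and Cyp2c29, and its part of the family was 24.8% and 16.2%. Cyp2c67 was 153 in chow (150 to 157) and 111 with the NASH diet (106 to 115), a log2 ratio of -0.47 (-0.56 to -0.38). Cyp2c68 was 56.2 (54.1 to 58.4) and 44.6 (41.9 to 47.4), a log2 ratio of -0.33 (-0.47 to -0.19). These 2 near-identical genes lay on the same side, and their separate values share the doubt about read assignment. Cyp2c29 had overlapping counting intervals, at 418 (412 to 424) and 415 (406 to 423), a log2 ratio of -0.01 (-0.06 to 0.04). That near equality held only under some settings, as its log2 ratio was -1.70 with a mitochondrial limit of 10%, -0.71 in cells of 10000 to 30000 UMIs and -0.32 as a mean over cells. Cyp2c40 also had overlapping intervals, 2.98 (2.51 to 3.52) and 2.60 (1.98 to 3.36) CPM.

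Mitochondrial share and depth moved with diet in these cells, and their part in the differences was not tested beyond the settings tried. Barcodes with 30% to 80% mitochondrial UMIs, left out above, held 2672 Cyp2c CPM in chow (463 barcodes) and 964 in the NASH library (2389 barcodes). With a mitochondrial limit of 10%, cells were clustered and named anew, which gave 1755 chow and 225 NASH hepatocyte-like cells. These are not a subset of the cells above, as 1595 of the 2100 chow cells there had 15% to 30% mitochondrial UMIs. At that limit the log2 ratios were -1.96 for Cyp2c37, -1.38 for Cyp2c38 and 0.02 for Cyp2c23. Whether mitochondrial share or the change of cells moved them was not tested. In cells with 15% to 30% mitochondrial UMIs they were 0.73, 1.02 and 1.03, and in cells with 10000 to 30000 UMIs 0.06, 0.38 and 0.98. Under all 21 settings tried, Cyp2c23 was higher in the NASH library (0.02 to 1.04) and Cyp2c70 (-0.73 to -0.35), Cyp2c67 (-2.38 to -0.41) and Cyp2c68 (-1.74 to -0.24) were lower.

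**Figure D1:**
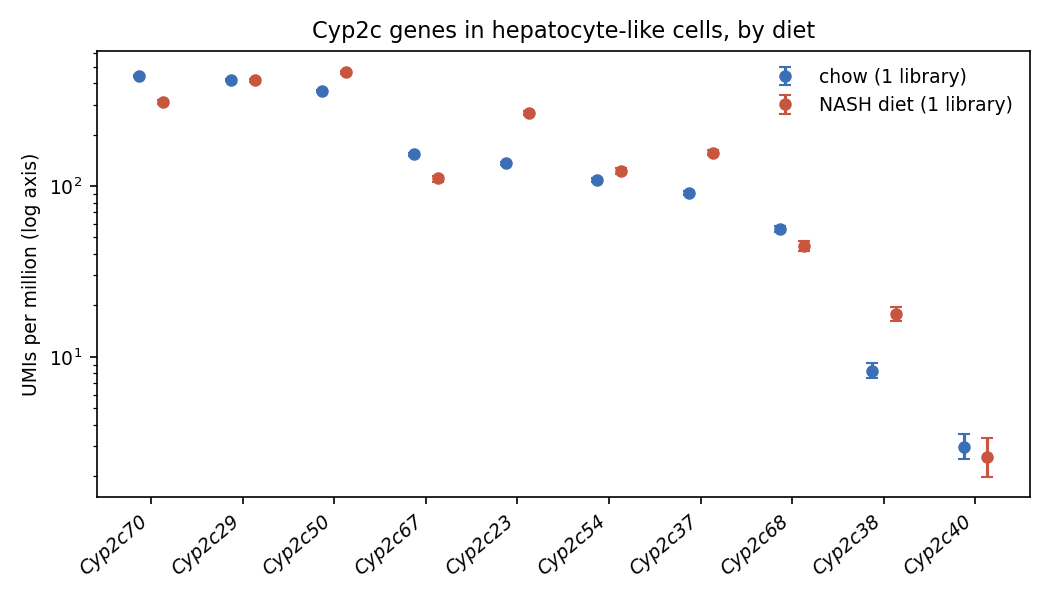
CPM of each gene (log axis) in hepatocyte-like cells of the chow library (blue) and the NASH library (red), 1 library each, with 95% Poisson intervals that cover counting error only. Cyp2c23, Cyp2c37 and Cyp2c38 sit higher in the NASH library, Cyp2c70, Cyp2c67 and Cyp2c68 sit lower, and Cyp2c29 and Cyp2c40 overlap.

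Position in the lobule separated the genes far more than diet did. Hepatocyte-like cells with at least 5000 UMIs (1845 chow and 1053 NASH) were ranked within each library by the expression of 15 pericentral against 15 periportal landmark genes, none of them a Cyp2c gene, and cut into 5 equal bins. Bin 1 is the most periportal and bin 5 the most pericentral. Median depth per bin ran from 23079 to 26509 UMIs in chow. In the NASH library it was 18841 to 20803 in bins 1 to 4 and 27422.5 in bin 5, where the median mitochondrial share was 20.8% against 23.5% to 24.5% in the other bins. The pericentral marker Glul, glutamine synthetase, was 19.3 CPM in bin 1 and 1220 in bin 5 of chow, and 14.4 and 3650 in the NASH library. The summed Cyp2c level by bin was 486, 577, 855, 2622 and 4353 in chow, and 557, 630, 789, 2002 and 4569 in the NASH library. It was highest in bin 5 of both, at 8.94 and 8.20 times bin 1. Of the 10 genes, 8 were at least 2-fold higher in bin 5 than in bin 1 in each library, where 2.5% of genes tested were in chow and 4.78% in the NASH library. Genes tested here had a mean of at least 5 CPM over the bins, with the landmark genes left out. Of the 8, Cyp2c40 was below that minimum in both libraries, and Cyp2c38 reached it only through bin 5. No Cyp2c gene was at least 2-fold lower in bin 5, where 2.35% and 2.54% of all genes tested were. The median log2 ratio of bin 5 to bin 1 was 4.63 in chow and 5.91 with the NASH diet, and 6.11 and 6.68 without the added 1 and with zero counts set to 3 UMIs, against 0.11 and 0.17 over all genes tested on the first scale.

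Cyp2c29 had one of the steepest profiles. In chow its level by bin was 2.43, 3.30, 22.7, 662 and 1390 CPM, 572-fold from bin 1 to bin 5 (counting interval 381 to 902). In the NASH library it was 1.68, 2.46, 2.93, 377 and 1340. The main step came between bins 3 and 4 in both libraries. Cyp2c37 went from 6 UMIs in bin 1 to 3452 in bin 5 of chow, 562-fold (258 to 1532), and in the NASH library from 0 to 3177, at least 767-fold with the zero set to 3 UMIs. Cyp2c50 was 5.59 and 1080 CPM in bins 1 and 5 of chow, 193-fold (148 to 258), and 6.47 and 1360 with the NASH diet, 210-fold (144 to 318). Cyp2c54 was 130-fold higher in bin 5 of chow (87.3 to 203) and 124-fold with the NASH diet (70.8 to 240). The fold ranges of Cyp2c50 and Cyp2c54 overlapped between the libraries.

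Cyp2c38 and Cyp2c40 were found mainly in bin 5. Cyp2c38 was 0, 0.103, 0.113, 3.97 and 35.6 CPM along the chow bins, at least 112-fold from bin 1 to bin 5, and it reached 66.2 in bin 5 of the NASH library, where bin 1 held 1 UMI (276-fold, 49.2 to 10932). Cyp2c40, whose product hydroxylates arachidonic acid, was 13.4 CPM in bin 5 of chow and 9.73 in bin 5 of the NASH library, with no UMI in bins 1 and 2 of either, so at least 42.3-fold and 13.5-fold higher in bin 5. Their near-identical or neighbouring relatives spread wider. Cyp2c67 was 21.3, 39.8, 70.0, 264 and 373 along the chow bins, 17.5-fold from bin 1 to bin 5 (15.2 to 20.2), and 3.6, 8.6, 28.6, 131 and 306 with the NASH diet, 85.1-fold (51.5 to 152). Cyp2c68 was 9.18-fold higher in bin 5 of chow (7.67 to 11.1) and 15.8-fold with the NASH diet (10.8 to 24.2). For Cyp2c67 the ranges did not overlap, and the libraries lay furthest apart at the periportal end. The size of both differences depended on ranking cells within each library. With the score limits of the chow bins used for both libraries, the log2 ratio of bin 5 to bin 1 was 4.82 for Cyp2c67 in the NASH library in place of 6.06, against 4.07 in chow. For Cyp2c68 it was 2.88 in place of 3.79, against 3.11 in chow, so the order of its gradients turned.

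Cyp2c70 and Cyp2c23 did not follow the pericentral pattern. Cyp2c70 was 298, 360, 456, 605 and 512 CPM along the chow bins and 231, 276, 369, 406 and 284 with the NASH diet. It peaked in bin 4 in both, and bin 5 was 1.72-fold (1.64 to 1.80) and 1.23-fold (1.13 to 1.33) above bin 1. Cyp2c23 was even in chow, at 142, 132, 134, 141 and 135. With the NASH diet it was 304, 313, 306, 256 and 199, lower at the pericentral end, with bin 5 at 0.654 of bin 1 (0.603 to 0.709). Periportal hepatocytes therefore drew most of their Cyp2c UMIs from these 2 genes, since in bin 1 of chow they had 298 and 142 of the summed 486 CPM.

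**Figure D2:**
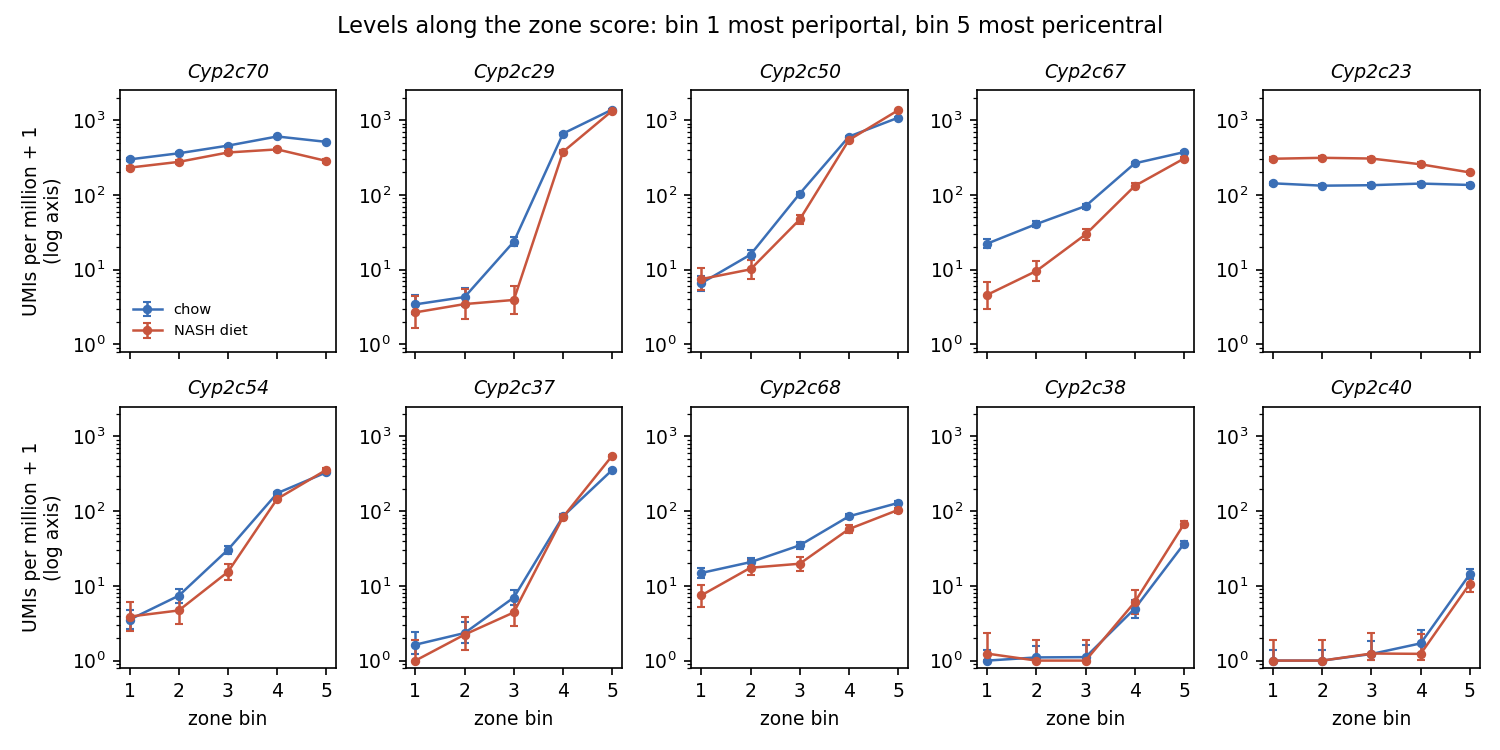
Level of each gene (CPM plus 1, log axis) in 5 bins of hepatocyte-like cells ranked from most periportal (1) to most pericentral (5), in the chow (blue) and NASH diet (red) libraries, with 95% Poisson intervals. Cyp2c29, Cyp2c50, Cyp2c54 and Cyp2c37 climb steeply, Cyp2c67 and Cyp2c68 climb less, Cyp2c70 peaks in bin 4, and Cyp2c23 is even in chow and falls towards bin 5 with the NASH diet.

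Cyp2c23 was higher and Cyp2c67 lower in the NASH library in every zone bin, whichever way the bins were drawn. Bins ranked within each library hold the same share of cells and not a fixed place in the lobule, so each value is given beside that from bins with the chow score limits in both libraries. With those limits 47.9% of NASH cells fell in bin 1 and 22.5% in bin 5. Cyp2c23 had log2 ratios from 1.24 in bin 2 to 0.55 in bin 5 of the ranked bins, and from 1.15 in bin 3 to 0.55 in bin 5 with the chow limits. Cyp2c67 was at -2.28 in bin 1, -2.09 in bin 2 and -0.28 in bin 5, and with the chow limits at -1.06, -0.21 and -0.31. Its difference in bin 2 was thus much smaller with common limits, at 39.8 CPM in chow and 34.3 in the 99 NASH cells of that bin. Counting intervals are not given for bins with the chow limits, so only the direction is stated there. Cyp2c70 was lower in all 5 ranked bins, from -0.31 in bin 3 to -0.85 in bin 5. With the chow limits it was -0.85 in bin 5 again, and 0.12 in bin 2. Cyp2c68 was -0.25 to -1.0 in the ranked bins, with overlapping counting intervals in bin 2, and 0.27 in bin 3 with the chow limits.

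For the steep pericentral genes the sign in bin 3 turned with the way of binning, and that in bin 5 did not. Cyp2c29 had a log2 ratio of -2.59 in ranked bin 3, at 22.7 CPM in chow and 2.93 in the NASH library, but of 0.21 with the chow limits, where the NASH level was 26.4. Cyp2c50 was -1.15 in ranked bin 3 and 1.04 with the chow limits, and Cyp2c54 -0.99 and 1.10. In bin 5, Cyp2c50 was 1080 and 1360 CPM, a log2 ratio of 0.33, and 0.29 with the chow limits. The counting intervals of Cyp2c29 overlapped in ranked bins 1, 2 and 5. Cyp2c37 was 356 CPM in bin 5 of chow and 552 in the NASH library, a log2 ratio of 0.63 that was 0.57 with the chow limits. Cyp2c38 was 0.88 and 0.80 in that bin. The overall ratios of these 2 genes, 0.78 and 1.02, exceeded those of each ranked bin, and with equal weight for each bin they were 0.51 and 0.77.

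Zone landmarks themselves differed between the libraries. When the score limits of the chow bins were used for both, the summed Cyp2c level was 622, 829, 1109, 2229 and 4479 CPM from bin 1 to bin 5. In bin 3 this NASH value was above the 855 of chow, whereas the ranked bin held 789. The gradient from bin 1 to bin 5 was thus present under both ways of binning. The acute phase genes, a list of 20 genes of the hepatic inflammatory response, summed to 113127 CPM in bin 1 of chow and 23411 in bin 1 of the NASH library. They were lower in the NASH library in 20 of 20 genes, with a median log2 ratio of -2.07. Their part in the Cyp2c differences was not tested.

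**Figure D3:**
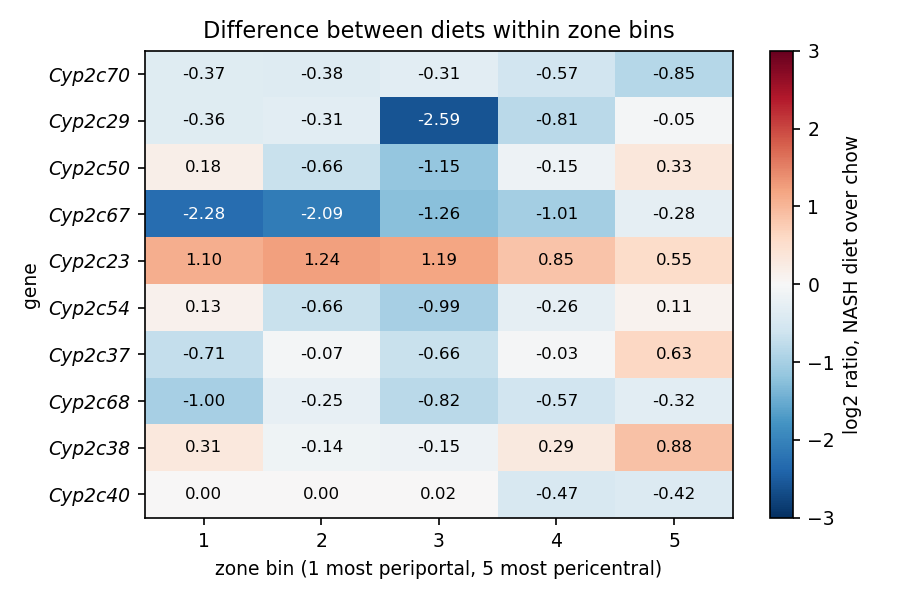
Log2 ratio of the NASH library over chow for each gene within each of 5 zone bins (columns, 1 most periportal), written in each cell and coloured from blue (lower) to red (higher), with bins ranked within each library. Cyp2c23 is positive in all bins, Cyp2c70, Cyp2c67, Cyp2c68 and Cyp2c29 are negative in all, and Cyp2c37 and Cyp2c38 are most positive in bin 5; with common score limits Cyp2c29 is 0.21 and Cyp2c68 0.27 in bin 3 and Cyp2c70 is 0.12 in bin 2.

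Single hepatocytes differed widely in their Cyp2c content. After thinning each cell to 5000 UMIs, the summed Cyp2c UMIs had a median of 4 in both libraries, with the 10th and 90th percentiles at 1 and 22 in chow and 1 and 25 with the NASH diet. The share of cells with at least 1 Cyp2c UMI was 94.1% in chow (92.9 to 95.1) and 91.5% in the NASH library (89.7 to 93.2). The variance over the mean, or Fano factor, is near 1 when counting alone sets the spread. Its median over the 10 genes was 1.76 in chow and 1.91 with the NASH diet, against 1.05 and 1.08 over 3988 and 4280 genes compared. This measure grows with the depth of thinning and with the level of a gene, and the genes compared were not matched for level. The contrast with them therefore does not separate spread from level, and the gene values are read against each other at 1 depth.

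The highest Fano factors were those of Cyp2c29, Cyp2c50 and Cyp2c37, all with steep zonation. Cyp2c29 had a Fano factor of 7.05 in chow and 7.17 with the NASH diet, and 37.7% and 28.4% of cells had a UMI of it at this depth. Cyp2c50 had 4.69 and 5.83, and Cyp2c37 3.91 and 4.66. Cyp2c54, also steep and with a higher mean than Cyp2c37 in chow (0.545 against 0.436 UMIs), had 2.19 and 2.44. The scarce pericentral genes Cyp2c38 and Cyp2c40 had 1.12 and 1.28 in chow, below Cyp2c70. Cyp2c70 had a UMI in 80.5% of the chow cells (78.7 to 82.3) and in 68.8% of those on the NASH diet (65.9 to 71.5), with Fano factors of 1.59 and 1.48. Without thinning, and over all hepatocyte-like cells, these shares were 90.6% and 87.0% for Cyp2c70 and 44.0% and 33.0% for Cyp2c29. Cyp2c23 had the lowest Fano factor of the 10 genes in chow, with 1.05 in chow and 1.27 with the NASH diet, and 48.2% and 66.7% of cells had a UMI. The coefficient of variation beyond counting was 26.6% and 46.2% for Cyp2c23 against 170% and 190% for Cyp2c29. Within the middle zone bin alone the Fano factor of Cyp2c29 was 1.64 in chow and 1.31 with the NASH diet, and that of Cyp2c70 was 1.62 and 1.49. The Fano factor falls with the level, and Cyp2c29 is low in that bin (22.7 and 2.93 CPM). Its coefficient of variation there was 202% in chow, no smaller than over all cells, and 330% with the NASH diet. The NASH value is uncertain, as that bin held 12 UMIs of Cyp2c29 in 210 cells before thinning, against 201 in 369 chow cells. The coefficient of Cyp2c70 in that bin was 51.8% and 51.5%, against 51.7% and 55.9% over all cells.

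**Figure D4:**
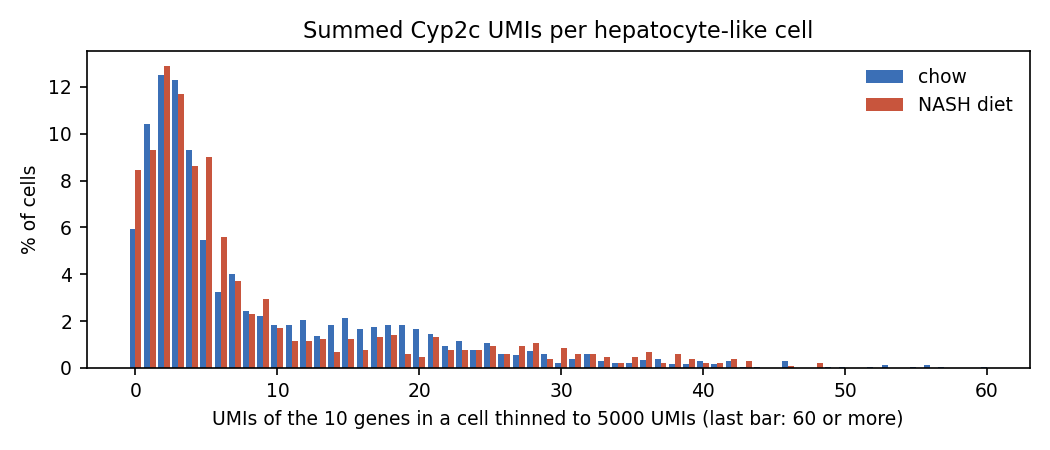
Percentage of hepatocyte-like cells (y axis) by the number of UMIs of the 10 genes after thinning each cell to 5000 UMIs (x axis), in the chow (blue, 1845 cells) and NASH diet (red, 1053 cells) libraries. Both have most cells at low counts and a long tail, with medians of 4 and 90th percentiles of 22 and 25.

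Correlations between the genes across cells were smaller within zone bins than over all cells for the pairs that stood highest. Across 1845 chow cells at equal depth, Cyp2c29 and Cyp2c50 had the highest correlation of the 45 pairs, with r of 0.83, and 0.85 across the 1053 NASH cells. Averaged within zone bins the same pair had r of 0.26 in both. Cyp2c50 and Cyp2c54 had r of 0.67 in chow and 0.74 with the NASH diet, and 0.26 and 0.29 within bins. Over all cells the order of the pairs was not that of sequence identity. Cyp2c29 and Cyp2c50 were 53.2% identical over the last 400 bases, and Cyp2c67 and Cyp2c68, at 97.5%, had r of 0.31 in chow and 0.29 with the NASH diet. Within bins of the NASH library the highest r, 0.36, was that of Cyp2c37 with Cyp2c50 (95% identical) and with Cyp2c54 (76.8%). In chow these pairs had 0.22 and 0.16 within bins. Cyp2c67 and Cyp2c68 had 0.08 in chow and 0.13 with the NASH diet within bins. The part of shared reads in these values was not tested. Cyp2c23 was weakly correlated with each of the other 9 genes in chow, from 0.01 with Cyp2c67 to 0.09 with Cyp2c70. Cells of 1 library share that library, so these are descriptions with no test, and the low counts of Cyp2c38 and Cyp2c40 hold their correlations down. Low counts also hold down the averages within bins for steep genes, as Cyp2c29 was 2.43, 3.30 and 22.7 CPM in bins 1 to 3 of chow. How far zone accounts for the smaller values within bins was not tested.

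Of 2054 genes compared over the 10 zone bins, the 5 whose profiles were most like the summed Cyp2c profile were Nrn1 (r = 0.99), Alad (0.99), Serpina7 (0.99), Cyp27a1 (0.98) and Aqp9 (0.98). Serpina7, which encodes thyroxine-binding globulin, was 2.01 CPM in bin 1 and 260 in bin 5 of chow, and 0.719 and 213 with the NASH diet. Cyp27a1, the sterol 27-hydroxylase of bile acid synthesis, was 36.1 and 217 in chow and 46.5 and 202 with the NASH diet. Aqp9, a glycerol channel, was 67.0 and 241, and 77.2 and 344. Among the Cyp2c genes themselves the correlation with the summed profile over the same 10 bins was 0.99 for Cyp2c37, 0.98 for Cyp2c29 and Cyp2c54, 0.50 for Cyp2c70 and -0.23 for Cyp2c23. These values pool both libraries, so differences in level between them enter. Over the 5 bins of each library alone, Cyp2c70 had 0.86 in chow and 0.30 with the NASH diet, and Cyp2c23 0.11 and -0.98. The points of these correlations share the library and the zone score, and each Cyp2c gene is itself part of the sum it was compared with.

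Other genes of the P450 system were described by lists chosen with earlier results known, and their counts stand beside the 68.5% of all genes tested that were higher in the NASH library. Of 17 other drug-metabolising P450 genes tested, 14 were higher and 3 lower, with a median log2 ratio of 0.39. The largest differences were in Cyp2a5, a coumarin hydroxylase, at 11.9 CPM in chow and 123 with the NASH diet, in Cyp2d22 at 57.2 and 123, and in Cyp2e1, the ethanol-oxidising P450, at 1344 and 2173. Of 15 lipid-metabolising P450 genes, 13 were higher and 2 lower, with a median of 0.44. They ranged from Cyp51, a sterol demethylase of cholesterol synthesis, at 269 in chow and 17.8 with the NASH diet, to the fatty acid hydroxylase Cyp4a10 at 20.8 and 523. Cyp4a14 was 16.2 and 260. Set beside these, the Cyp2c genes had a median of 0.08 with 5 on each side. That includes Cyp2c40, which was below the minimum of 5 CPM and among the lower genes, and without it the median was 0.18.

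Among the enzymes that supply P450 proteins with electrons or take up their products, Por and both epoxide hydrolases were higher in the NASH library. Por, the reductase that passes electrons to microsomal P450s, was 78.2 CPM in chow (75.7 to 80.8) and 274 with the NASH diet (268 to 281). Of 6 redox partners 5 were higher and 1 lower, with a median log2 ratio of 0.53, Fdx1 at 0.84 and Cyb5a at 0.68. Cyb5b was the lower one, at -0.22, and the counting interval of Fdxr (-0.03 to 0.55) included 0. Ephx2, the soluble epoxide hydrolase that opens fatty acid epoxides, was 280 (275 to 285) and 693 (682 to 704), a log2 ratio of 1.31, and Ephx1, the microsomal hydrolase, was 35.2 and 69.0. Of 21 transcription factors tested 14 were higher and 7 lower, with a median of 0.12, close to the 0.14 of all genes. Nr1i3, which encodes CAR, was 43.9 and 139, the fatty acid receptor gene Ppara 32.4 and 85.1, and the repressor gene Bcl6 7.30 and 25.2. Hnf4a and Nr1i2, which the rule for naming genes did not pick, are given as regulators named above: Hnf4a was 229 in chow and 161 with the NASH diet, a log2 ratio of -0.50, and Nr1i2, which encodes PXR, was 27.1 and 30.4. Cyp2c29, set beside them, was 418 and 415.

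**Figure D5:**
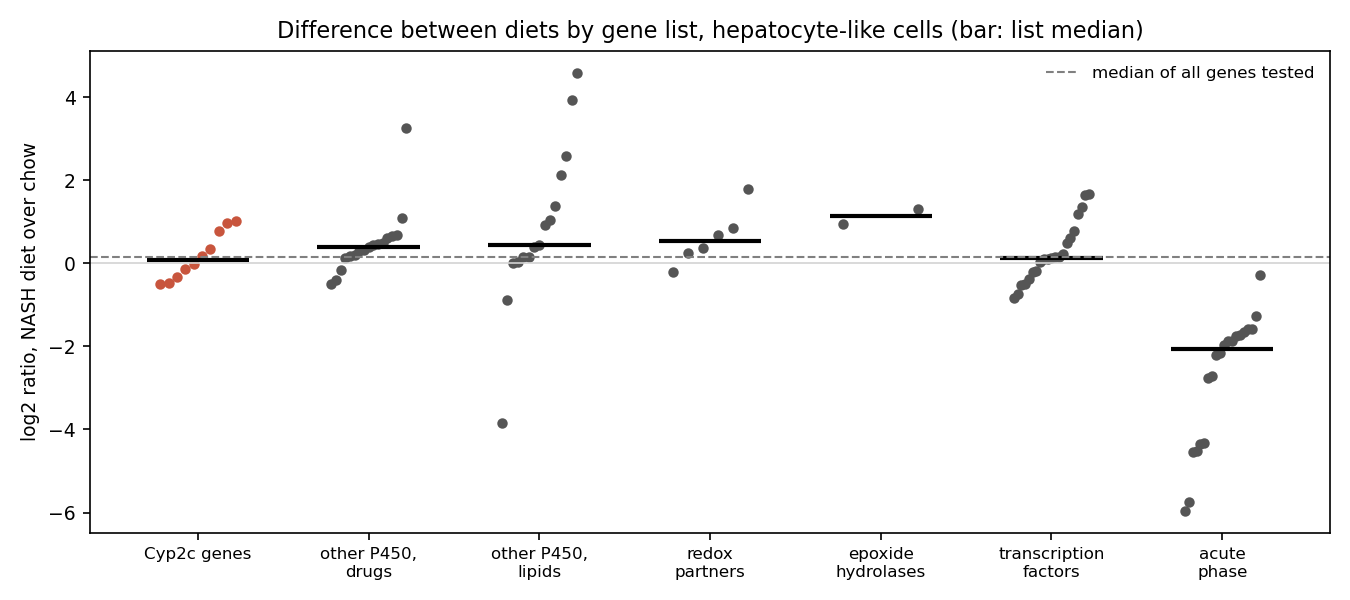
Log2 ratio of the NASH library over chow in hepatocyte-like cells for the 10 Cyp2c genes (red) and for tested genes of 6 lists (grey points, 1 per gene), with bars at list medians and a dashed line at the median of all genes tested, 0.14. The Cyp2c genes, with Cyp2c40 below the minimum of 5 CPM included, spread from -0.51 to 1.02 around a median of 0.08. Other P450 lists have medians of 0.39 and 0.44, and the acute phase list has -2.07.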

How the data were processed

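Single-cell RNA was counted in 2 libraries. The deposited matrices hold raw UMI counts of each gene in each barcode, whole numbers with no normalization. They name Cell Ranger 3.0.2 per the file headers, and per the submitters' processing notes Cell Ranger 3.1.0, Seurat and the build mm10 were used. Per the labels' protocols the kit was the 10x Genomics 3' kit. The merged matrix was an alternative only, because its chow part held 86.4% of that library's own UMIs. Columns left unmatched to a sample numbered 0.

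Barcodes were kept with at least 200 genes, 500 UMIs and at most 30% mitochondrial UMIs, which left 4326 chow and 2369 NASH diet barcodes. Scrublet (scanpy 1.11.5) called 1 and 0 doublets by its own threshold, so the highest scores were removed at 0.8% per 1000 barcodes, leaving 4041 and 2305. Both libraries were clustered together (2000 variable genes with no Cyp2c gene, 30 components, 15 neighbours, Leiden at 1.0, igraph 0.11.9, scikit-learn 1.9.0). Clusters were named from marker lists, with thresholds set after the clusters were seen. Clusters of low UMI count stayed unnamed, 1764 chow and 998 NASH diet barcodes.

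Counts were summed per library into CPM, and log2 ratios used a pseudocount of 1. Genes tested had at least 5 CPM, and a gene was called at 2-fold. With 1 library per diet and cells that are not replicates, neither p-values nor standard errors are given. Poisson and Clopper-Pearson intervals (95%, scipy 1.17.1) and zeros set to 3 counts cover counting error only. Ratio intervals with a pseudocount combine the Poisson bounds of both counts. Cells were thinned to 5000 UMIs for spread (255 chow and 84 NASH diet cells were shallower and left out) and to 1000 for background shares. The scripts were tested on simulated data. Sequences were aligned with Biopython 1.88. The members and lists were chosen with earlier results of these data known. Named genes were all members, the 3 genes of each pathway list with the largest log2 ratio, and the 5 most similar zone profiles; values of acute phase genes, zone markers, Hnf4a, Nr1i2, Cyb5b and Fdxr were added after they were seen.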

Additional observations from a re-analysis of the deposited data

How the results depend on the processing

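No paired analysis was possible because each diet had 1 library. Of 21 alternatives for the median Cyp2c log2 ratio between diets (0.08), 12 stayed within counting error of it and 9 turned its sign: -1.54 with a mitochondrial limit of 10%, -0.13 with 50% and -0.13 with none, -0.46 in cells of 10000 to 30000 UMIs, -0.06 relative to all genes tested, -0.20 as a mean over cells, -0.12 in all deposited barcodes, and, for settings added after the data were seen, -0.16 with equal weight for each zone bin and -0.02 with the chow score limits as well. The sign of this median is therefore not settled by these data, and the cause was not tested. Cells were clustered and named anew at each mitochondrial limit, so the cells compared changed too. The main setting had 2100 chow and 1137 NASH hepatocyte-like cells. There were 1755 and 225 at the 10% limit, 2321 and 3864 at 50%, and 2345 and 3791 with no limit. At the 10% limit Cyp2c37 was -1.96, Cyp2c38 -1.38, Cyp2c50 -1.38 and Cyp2c54 -2.26. Cyp2c54 was -0.05 at 50%, -0.04 with no limit, -0.36 at 10000 to 30000 UMIs, -0.09 as a mean over cells, -0.07 in all barcodes and -0.05 with equal zone weights. Cyp2c50 was -0.20 at 10000 to 30000 UMIs. Cyp2c29 was -1.70 at the 10% limit, -0.28 at 50% and with no limit, -0.71 at 10000 to 30000 UMIs, -0.32 as a mean over cells, -0.30 in all barcodes and -0.27 with equal zone weights, and it was 0.03 with doublets kept, 0.04 in the merged matrix and 0.05 without mitochondrial UMIs in the total. Over 8 zone settings the median log2 ratio of bin 5 to bin 1 ranged from 4.17 (with 3 bins) to 4.70 in chow and from 5.33 to 6.06 with the NASH diet. The median Fano factor was 2.43 in chow and 2.42 with the NASH diet at 10000 UMIs, 1.31 and 1.35 at 2000, 1.26 in both in the middle bin, and 1.66 in NASH diet cells with 15% to 30% mitochondrial UMIs; it depends on depth by construction. Depth limits Cyp2c40 (140 and 59 UMIs) and the periportal values of Cyp2c37 and Cyp2c38.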
